A study of Mus musculus with 24 samples.

Results

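Heterotrimeric G proteins relay the signals of the receptors that noradrenaline, acetylcholine, dopamine, serotonin, glutamate and GABA reach in the cortex. An active receptor makes the alpha subunit exchange GDP for GTP, after which the alpha subunit and the paired beta and gamma subunits act on adenylyl cyclases, phospholipase C and ion channels. RGS proteins (regulators of G protein signaling) speed the hydrolysis of GTP on the alpha subunit and so shorten the signal. A set of genes of this system was taken from the expression table by symbol. They were 41 of the 23881 genes listed, with 13 alpha subunits, 5 beta subunits, 10 gamma subunits and 13 RGS genes, and further genes of these families in the table are not described here.

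RNA of mouse visual cortex was sequenced in 3 groups of 4 libraries. P28-KO were mice of postnatal day 28 in which the adjacent Mir132 and Mir212 genes were deleted in the germ line, so that every cell lacked both microRNAs at all ages. P28-wt were wild-type mice of the same age and P10-wt wild-type mice of postnatal day 10, and all groups were C57BL6J of both sexes with normal rearing. The columns of the table carry a pair of numbers for each library, so a library may pool animals, and p-values measure the spread between libraries.

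The values are RPKM, read counts scaled to the length of the exon model and to the mapped reads of the library. They allow levels of different genes to be set side by side, with 1 limit. Only uniquely aligned reads were counted, so genes with near-identical copies may read too low, also in rank orders and shares. Both genes of the deleted locus were listed at 0 in all 4 P28-KO libraries, where Mir212 had 14.0 to 24.7 RPKM and Mir132 9.74 to 14.4 RPKM in P28-wt. In P10-wt libraries Mir212 had 0.372 to 1.43 RPKM and Mir132 0.130 to 1.19 RPKM. The step between low values implied a depth of 23661000 to 35315000 reads in P28-KO, 18216000 to 44204000 reads in P28-wt and 31495000 to 91361000 reads in P10-wt. Excitatory neuron markers of cortex were present in every library, and their summed level was 2353 to 2544 RPKM in P28-KO, 2675 to 3266 RPKM in P28-wt and 1016 to 1807 RPKM in P10-wt. On the first 2 principal components of all genes, library 103R (P10-wt replicate 1) and library 158R (P28-wt replicate 2) stood apart from their groups. Among the 39 members tested, the libraries that were most often at an end of their group were 158R (highest in 15 and lowest in 16), P28-KO library 088R (16 and 14) and 103R (11 and 16). The median transcript length was 2027 bases where 158R was highest and 4494 bases where it was lowest. In bulk tissue, fewer cells of a type and less RNA per cell cannot be told apart.

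Among the 41 members, each class was led by a few genes. Among alpha subunits, Gnas, which encodes Gs, the activator of adenylyl cyclase, had the highest level, with 161, 176, 152 and 154 RPKM in P28-KO, 171, 199.8, 190.2 and 163 RPKM in P28-wt and 170.0, 182, 187 and 188 RPKM in P10-wt. Gnao1, the Go alpha subunit and a major G protein of neurons, came next among alpha subunits. Gnb1 and Gnb2 were the leading beta subunits, Gng3 and Gng2 the leading gamma members, and Rgs7 and Rgs10 the leading RGS members by mean over the 12 libraries. RGS genes outside the members were not ranked. Some neighbours in the order of levels did not differ beyond their spread, as for Gna12 at 22.2 ± 4.28 RPKM and Gnaz at 21.7 ± 4.26 RPKM in P28-wt (SD, n = 4), whose ranges overlapped. Gna14, a Gq family member, and Gnb3, the beta subunit of cones and ON bipolar cells of the retina, lay below the limit for testing, a mean of 0.5 RPKM over all libraries. Gna14 was listed at 0 to 0.0571 RPKM, and its values came to between 0 and 14.0 implied reads per library. Gnb3 was at 0.0191 to 0.215 RPKM. The remaining 39 members were tested.

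**Figure D1:**
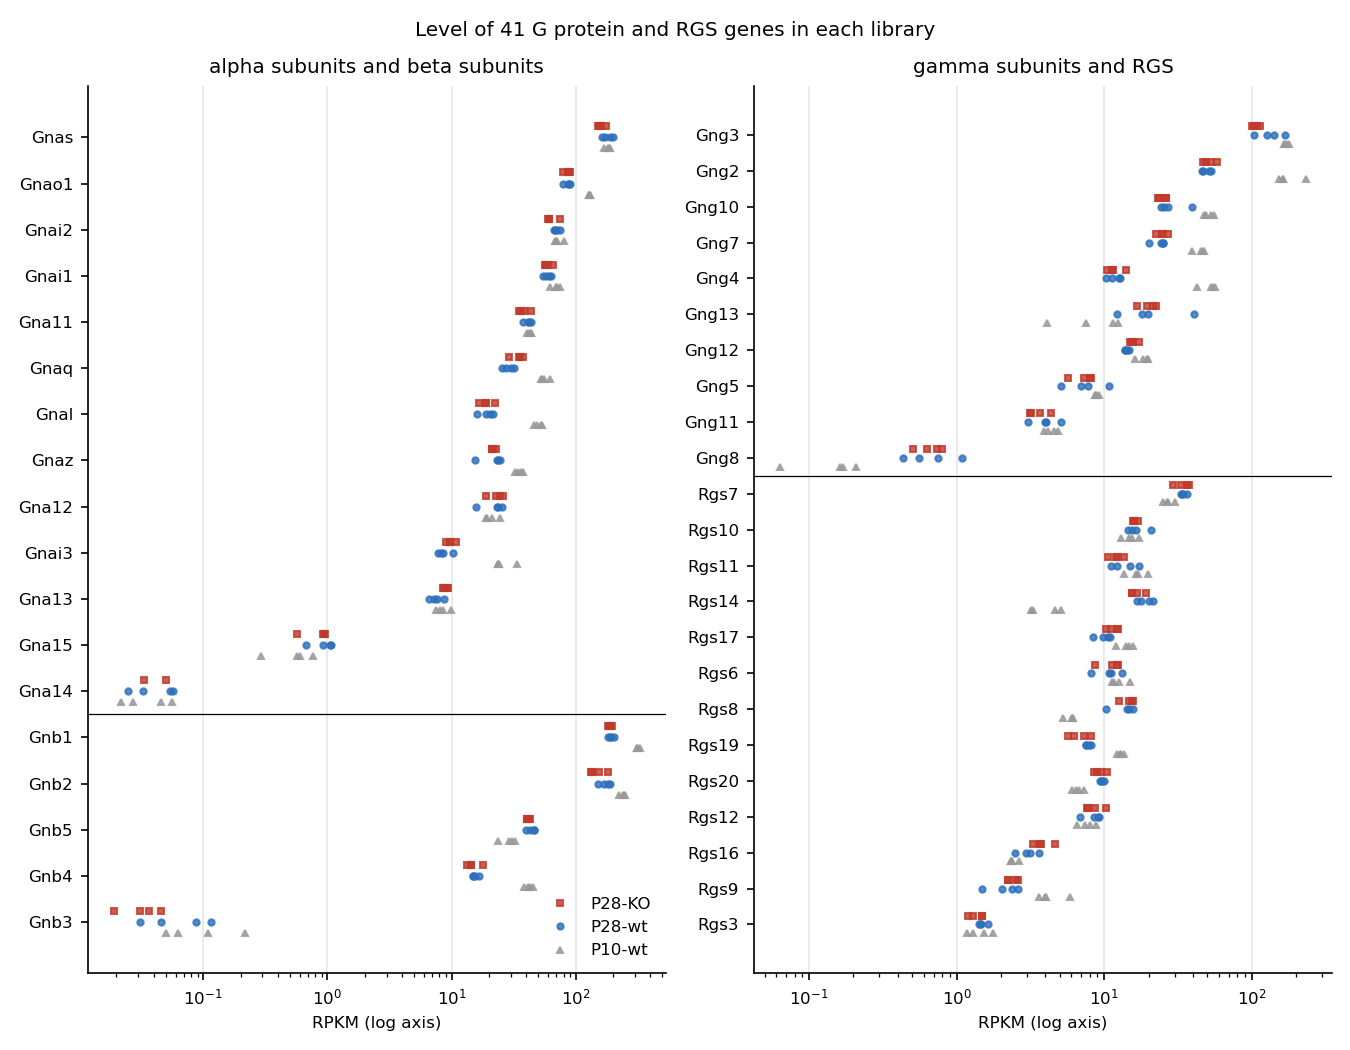
Level of each of the 41 genes in RPKM on a log axis, with 1 point per library and the groups P28-KO, P28-wt and P10-wt from top to bottom within a gene. Values of 0 (Gna14 in 2 P28-KO libraries) are not drawn, and Gng4, Gng2, Gnai3 and Gnal show the P28-wt points clearly left of the P10-wt points, while Rgs14 shows them to the right.

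The comparison of P28-wt with P10-wt asked how the system changed over these weeks of visual cortex development. With limma's moderated test on log2(RPKM + 0.1), 8 of the 39 members were called higher at P28 and 18 lower, at a Benjamini-Hochberg adjusted p under 0.05 over all 13927 genes tested. Over all genes tested the percentages called were 26.7% higher and 31.2% lower (57.9% in either direction), and over the members 20.5% higher and 46.2% lower. The 2 groups of libraries did not overlap in 22 members, 6 higher and 16 lower at P28, which is 56.4% of the members where all genes gave 54.5% (24.9% higher and 29.7% lower). Both counts of higher members include Gng8, which passed the filter on low values only through its P28 libraries. The median log2 fold change was -0.23 over the members and -0.048 over all genes tested. Summed over the 41 genes, the members took 0.504% to 0.510% of the summed RPKM of a P28-wt library and 0.725% to 0.763% of a P10-wt library. Markers of other cell types moved with age too: 8 of 8 oligodendrocyte markers were called higher, and their sum was 1718 to 2476 RPKM in P28-wt libraries and 26.6 to 105 RPKM in P10-wt libraries. Excitatory neuron markers were higher in 4 and lower in 3 of 7, inhibitory neuron markers higher in 5 and lower in 1 of 7, microglial markers higher in 7 of 7 and astrocyte markers higher in 3 and lower in 1 of 7. Markers of oligodendrocyte precursors were lower in 3 of 4, those of pericytes, vascular muscle and meninges lower in 5 of 9, and those of thalamus lower in 3 and higher in 1 of 6 tested. Endothelial markers were higher in 2 and lower in 2 of 7, choroid plexus markers higher in 1 and lower in 2 of 3 tested, and blood markers were called in 0 of 3 tested. Of 6 genes listed as signs of RNA quality or nuclear RNA, 4 were higher and 1 lower, with Neat1 at a log2 fold change of 1.57 and Malat1 at 0.81, while their sum was 969 to 1253 RPKM in P28-wt and 1012 to 1074 RPKM in P10-wt libraries. The part of such changes in cell makeup and RNA quality in the members' results was not tested.

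**Figure D2:**
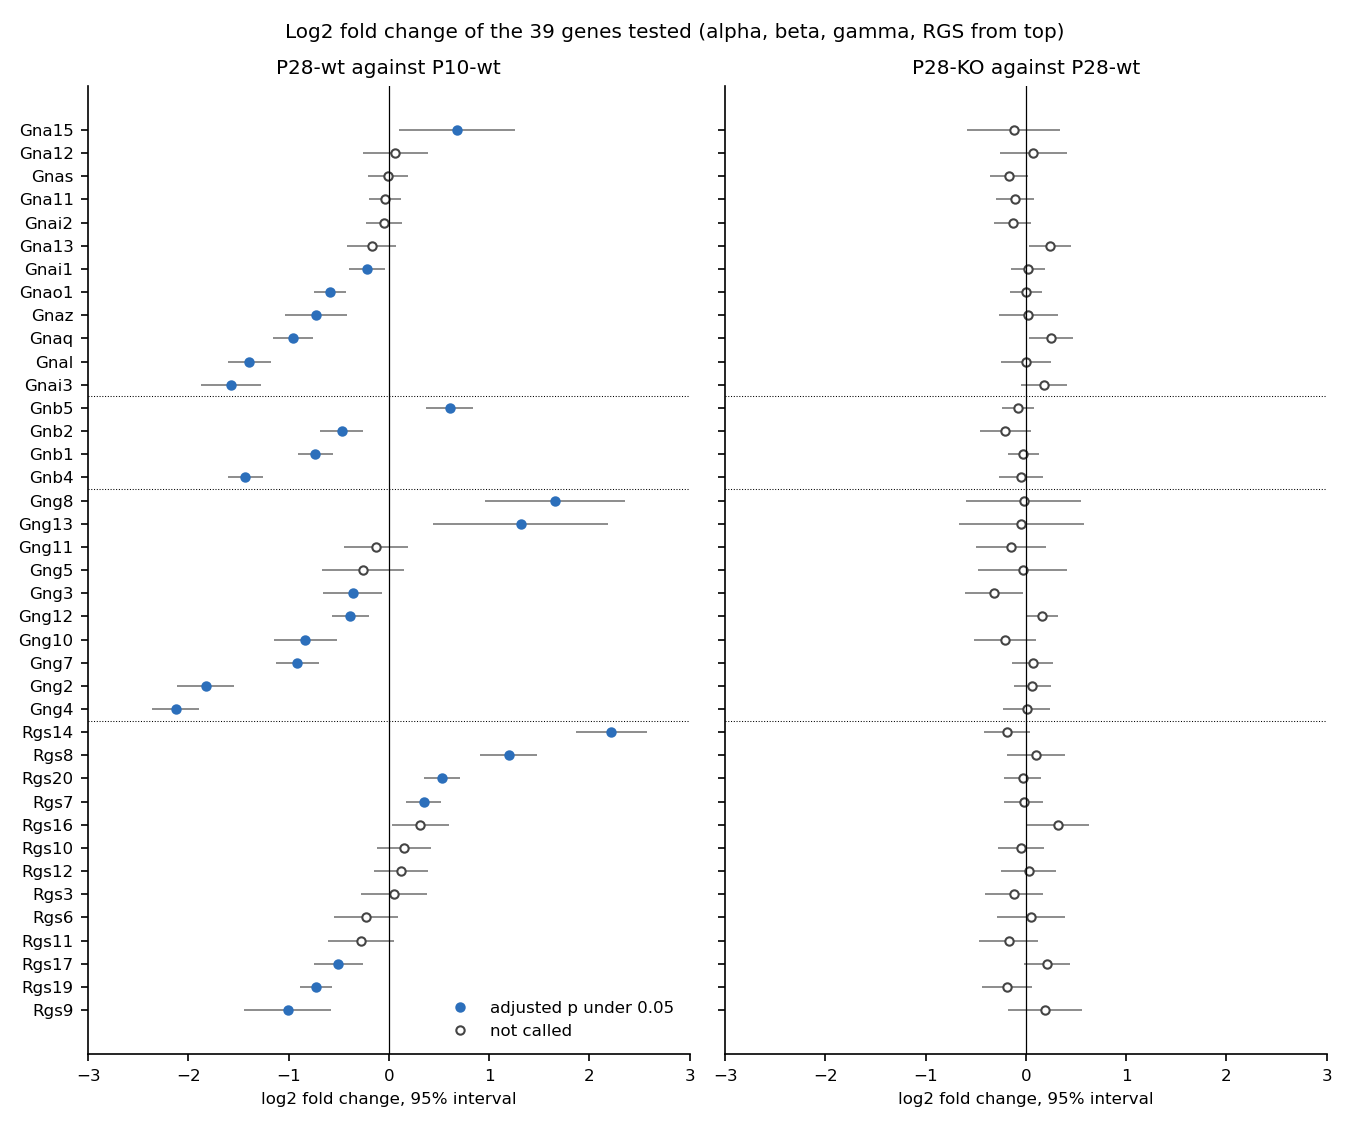
Log2 fold change of the 39 genes tested (points) with its 95% interval (lines), P28-wt against P10-wt on the left and P28-KO against P28-wt on the right, by class and in the order of the age difference. Filled points mark an adjusted p under 0.05, which 26 genes reached by age and 0 by genotype.

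Alpha subunits of the Gi/o family, most of which inhibit adenylyl cyclase, had 4 of 5 members called lower at P28 and 0 higher. Over all genes tested, 31.2% were called lower and 26.7% higher. Gnai3 had 7.76, 10.4, 8.54 and 8.18 RPKM in P28-wt libraries, against 33.8, 23.6, 24.0 and 23.8 RPKM in P10-wt libraries. Every P28-wt library lay below every P10-wt library, and 103R was far above the other P10-wt libraries. The log2 fold change of Gnai3 was -1.57 (SE 0.13, adjusted p = 6.8e-06), and it was -1.45 without 103R. Gnaz, whose product Gz is an inhibitor of adenylyl cyclase that pertussis toxin does not block, had 23.2, 15.4, 23.7 and 24.5 RPKM in P28-wt libraries, against 34.4, 32.8, 37.8 and 36.6 RPKM in P10-wt libraries. The groups did not overlap, with 158R the lowest P28-wt library, and the log2 fold change was -0.72 (SE 0.14, adjusted p = 0.0013). Gnao1 had 90.8, 79.3, 86.1 and 89.1 RPKM in P28-wt libraries, against 130.1, 131.7, 128 and 128 RPKM in P10-wt libraries. All P28-wt values were lower than all P10-wt values, with a log2 fold change of -0.59 (SE 0.073, adjusted p = 7.8e-05). Gnai1 overlapped between ages at 59.4 ± 3.87 RPKM in P28-wt and 69.1 ± 5.12 RPKM in P10-wt (SD, n = 4 each). Its small decrease, -0.22 (SE 0.082, adjusted p = 0.042), missed the threshold when any 1 of P28-wt libraries 146R and 152R or P10-wt libraries 111R, 117R and 099R was left out, with adjusted p of 0.0868 to 0.127. Median-ratio scaling gave -0.18 (adjusted p = 0.10), correction for GC content and length -0.040 (0.62) and a replicate block an adjusted p of 0.052. Gnai2, the remaining member, had 69.98 ± 3.34 RPKM in P28-wt and 72.4 ± 6.11 RPKM in P10-wt (SD, n = 4 each) and was not called, at a log2 fold change of -0.046 (SE 0.081, adjusted p = 0.65).

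Both stimulatory alpha subunits were expressed, and Gnal was called lower at P28. Gnal encodes Golf, which couples dopamine and adenosine receptors to adenylyl cyclase in striatum and odorant receptors in the olfactory epithelium. It had 21.4, 16.1, 18.9 and 20.3 RPKM in P28-wt libraries, against 53.5, 49.0, 46.3 and 52.3 RPKM in P10-wt libraries. The groups lay far apart, and the log2 fold change was -1.39 (SE 0.098, adjusted p = 2.2e-06). Gnas averaged 181 ± 16.9 RPKM in P28-wt and 182 ± 8.10 RPKM in P10-wt (SD, n = 4 each) and was not called, with a log2 fold change of -0.009 (95% interval -0.21 to 0.19). The share of Gnas in the summed RPKM of the alpha subunits was 33.1% ± 3.25 in P28-wt and 26.2% ± 1.41 in P10-wt (SD, n = 4 each), with a sum of 547 ± 10.9 RPKM in P28-wt and 693 ± 10.3 RPKM in P10-wt. Gnas is an imprinted locus with several overlapping transcripts, which a single RPKM per gene does not separate.

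In the Gq/11 family, which activates phospholipase C beta, Gnaq was lower and Gna15 higher at P28. Gnaq had 30.1, 25.6, 27.6 and 32.1 RPKM in P28-wt libraries, against 62.0, 54.0, 52.3 and 55.7 RPKM in P10-wt libraries. No P28-wt library reached the lowest P10-wt library, and the log2 fold change was -0.96 (SE 0.09, adjusted p = 1.3e-05). Gna11, its close relative of like function, had 41.3 ± 2.56 RPKM in P28-wt and 42.3 ± 1.35 RPKM in P10-wt (SD, n = 4 each), with a log2 fold change of -0.037 (95% interval -0.20 to 0.12). Gna15, best known from blood-forming cells, had 0.672, 1.06, 1.07 and 0.919 RPKM in P28-wt libraries, against 0.293, 0.607, 0.773 and 0.568 RPKM in P10-wt libraries. The groups overlapped, and the call was marginal at a log2 fold change of 0.68 (SE 0.26, adjusted p = 0.046). It was lost when any 1 of P28-wt libraries 158R, 152R and 144R or P10-wt libraries 103R, 111R and 099R was left out, and the log2 fold change was 0.45 without 103R. A pseudocount of 0.01 (adjusted p = 0.052), no filter on low values (0.077), Ddx3y as a measure of male RNA (0.11) or correction for GC content and length (0.20) also ended it. Gna12 and Gna13, of the G12/13 family, were not called, at log2 fold changes of 0.065 and -0.17. Some of these genes are neighbours on the mouse genome (mm10): Gna15 at chr10:81502314-81524225 and Gna11 at chr10:81528732-81545046 lie 4506 bases apart on chromosome 10.

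All 4 beta subunits tested were called, 1 higher and 3 lower at P28, where 57.9% of all genes tested were called. Gnb4 had 14.8, 16.7, 15.5 and 14.9 RPKM in P28-wt libraries, against 38.1, 45.7, 43.0 and 41.3 RPKM in P10-wt libraries. The P28-wt values were close together and far below those of P10-wt, with a log2 fold change of -1.43 (SE 0.078, adjusted p = 5.6e-07). Gnb1, the most abundant beta subunit, had 181, 204, 193 and 190.0 RPKM in P28-wt libraries, against 314, 319.7, 313 and 327 RPKM in P10-wt libraries. The groups did not overlap, and the log2 fold change was -0.73 (SE 0.08, adjusted p = 3.3e-05). Gnb2 had 169.6, 181, 191 and 150.2 RPKM in P28-wt libraries, against 249.8, 222, 240.3 and 243 RPKM in P10-wt libraries. Here too every P28-wt library was lower than every P10-wt library, and the log2 fold change was -0.47 (SE 0.096, adjusted p = 0.0019), which came to -0.81 once each library was corrected for GC content and length of the transcripts. Gnb5 is the atypical beta subunit that binds RGS proteins of the R7 family in place of gamma subunits. It had 43.2, 46.6, 46.0 and 39.8 RPKM in P28-wt libraries, against 23.7, 32.5, 30.5 and 29.1 RPKM in P10-wt libraries. It was the beta subunit that rose, without overlap and with a log2 fold change of 0.61 (SE 0.10, adjusted p = 0.00063). Its share of the summed beta subunit RPKM was 10.3% ± 0.210 in P28-wt and 4.61% ± 0.621 in P10-wt, while that of Gnb4 was 3.65% ± 0.121 and 6.69% ± 0.554 (SD, n = 4 each).

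Gamma subunits, small lipid-anchored proteins that hold the beta subunit at the membrane, showed the widest range of age differences. Among them 2 of 10 were called higher and 6 lower, where all genes gave 26.7% higher and 31.2% lower. Gng4 (chr13:13784059-13827895) had 10.3, 11.4, 12.5 and 12.7 RPKM in P28-wt libraries, against 42.7, 53.1, 56.0 and 54.3 RPKM in P10-wt libraries. The groups were widely separated, and the log2 fold change was -2.12 (SE 0.11, adjusted p = 3.3e-07). Gng2 (chr14:19872559-19977249) had 47.1, 52.8, 45.8 and 51.6 RPKM in P28-wt libraries, against 232, 162, 154 and 162 RPKM in P10-wt libraries. Library 103R was far above the other P10-wt libraries, which were still all above P28-wt. The log2 fold change of Gng2 was -1.83 (SE 0.13, adjusted p = 2.1e-06) with 103R and -1.69 without it. Gng7, a partner of Golf in striatum, had 24.3, 20.1, 25.1 and 25.2 RPKM in P28-wt libraries, against 39.3, 47.2, 46.6 and 45.2 RPKM in P10-wt libraries. Its groups did not overlap, and the log2 fold change was -0.91 (SE 0.096, adjusted p = 2.6e-05). Gng10 had 24.4, 39.7, 27.0 and 25.6 RPKM in P28-wt libraries, against 55.7, 52.7, 47.5 and 48.8 RPKM in P10-wt libraries. Library 158R was the highest of P28-wt yet below all P10-wt libraries, and the log2 fold change was -0.83 (SE 0.14, adjusted p = 0.0006).

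The gamma subunits that rose were Gng13 and Gng8. Gng13, the gamma subunit of taste cells and of ON bipolar cells of the retina, had 19.8, 40.4, 17.9 and 12.3 RPKM in P28-wt libraries, against 4.09, 12.4, 7.57 and 11.5 RPKM in P10-wt libraries. The lowest P28-wt library was just below the highest P10-wt library, while 158R was high and 103R low. The log2 fold change of Gng13 was 1.32 (SE 0.39, adjusted p = 0.015), and it was 0.67 (adjusted p = 0.022) without both of these libraries. Gng8, known from olfactory and vomeronasal neurons, had 0.560, 0.746, 1.09 and 0.436 RPKM in P28-wt libraries, against 0.171, 0.161, 0.0638 and 0.209 RPKM in P10-wt libraries. The groups did not overlap, with a log2 fold change of 1.66 (SE 0.31, adjusted p = 0.0012), but these levels came to only 9.39 to 44.3 implied reads per P28-wt library and 1.85 to 14.4 per P10-wt library. The mean of Gng8 over all libraries, 0.509 RPKM, was just above the limit for testing of 0.5 RPKM. It passed only through P28-wt (mean 0.708 RPKM) and P28-KO (0.668 RPKM), as P10-wt had a mean of 0.151 RPKM. Its call and its lack of overlap are thus not independent of the filter. Gng3, the neuronal gamma subunit with the highest level, had 128, 168, 141 and 103 RPKM in P28-wt libraries, against 167, 179, 165 and 173 RPKM in P10-wt libraries. Library 158R overlapped with P10-wt, and the call was marginal at a log2 fold change of -0.36 (SE 0.13, adjusted p = 0.038). It was lost when any library but 158R was left out (adjusted p 0.0518 to 0.0879), and the log2 fold change was -0.24 without 144R. Without a filter on low values its adjusted p was 0.073. Gng12 was lower at P28 at a log2 fold change of -0.38 (SE 0.082, adjusted p = 0.0025), which missed the threshold at -0.15 (adjusted p = 0.14) after correction for GC content and length. Gng5 and Gng11 were not called, at log2 fold changes of -0.26 and -0.13, and Gng5 was called lower, at -0.44 (adjusted p = 0.017), without 158R.

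**Figure D3:**
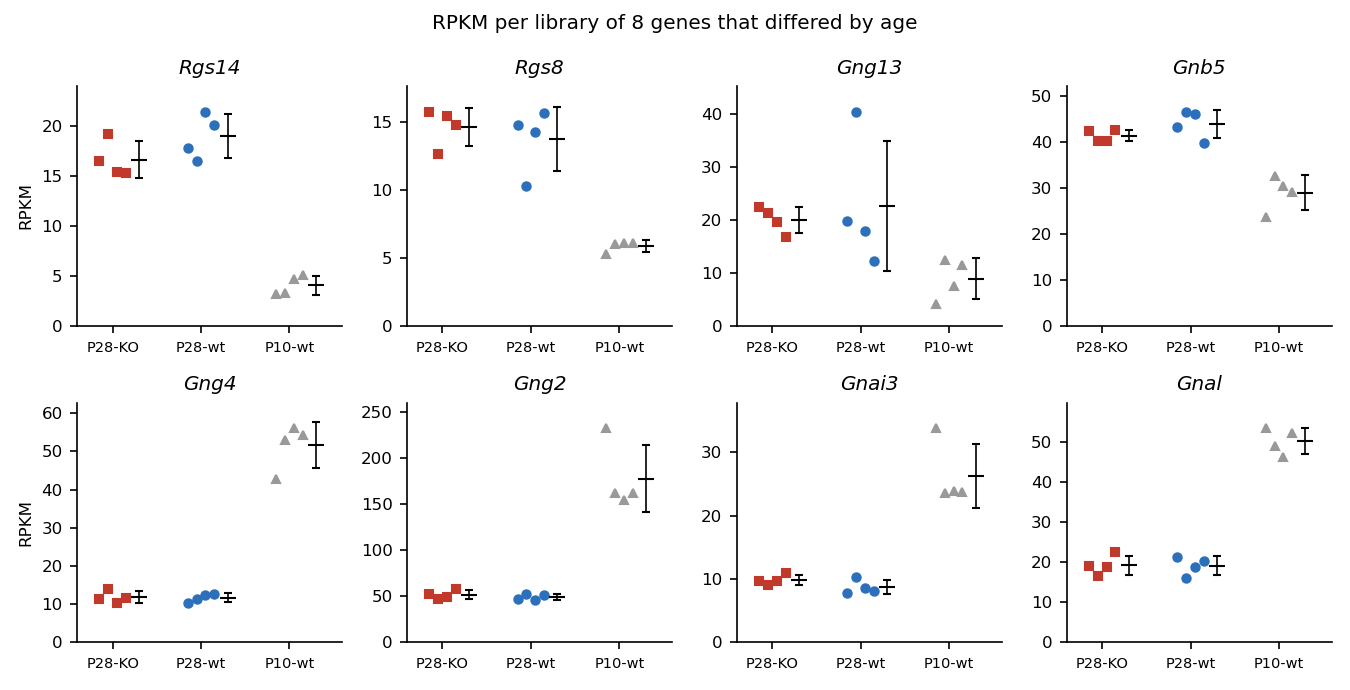
RPKM per library of 8 genes (points), with the mean and SD of the 4 libraries of a group beside them, in the order P28-KO, P28-wt and P10-wt, on axes that start at 0. Rgs14, Rgs8 and Gnb5 were higher in every P28-wt than in every P10-wt library, Gng13 overlapped, and Gng4, Gng2, Gnai3 and Gnal were lower in every P28-wt library.

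The make-up of the gamma subunits can be given by their shares. Their sum was 298 ± 47.0 RPKM in P28-wt and 537 ± 25.6 RPKM in P10-wt (SD, n = 4 each). Gng3 took 45.1% ± 3.12 of it in P28-wt and 31.9% ± 1.77 in P10-wt, and Gng2 16.8% ± 2.52 in P28-wt and 32.9% ± 5.19 in P10-wt (SD, n = 4 each). Gng13 took 7.28% ± 2.71 in P28-wt and 1.67% ± 0.731 in P10-wt (SD, n = 4 each). These shares were not tested, because shares of 1 sum depend on each other.

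**Figure D4:**
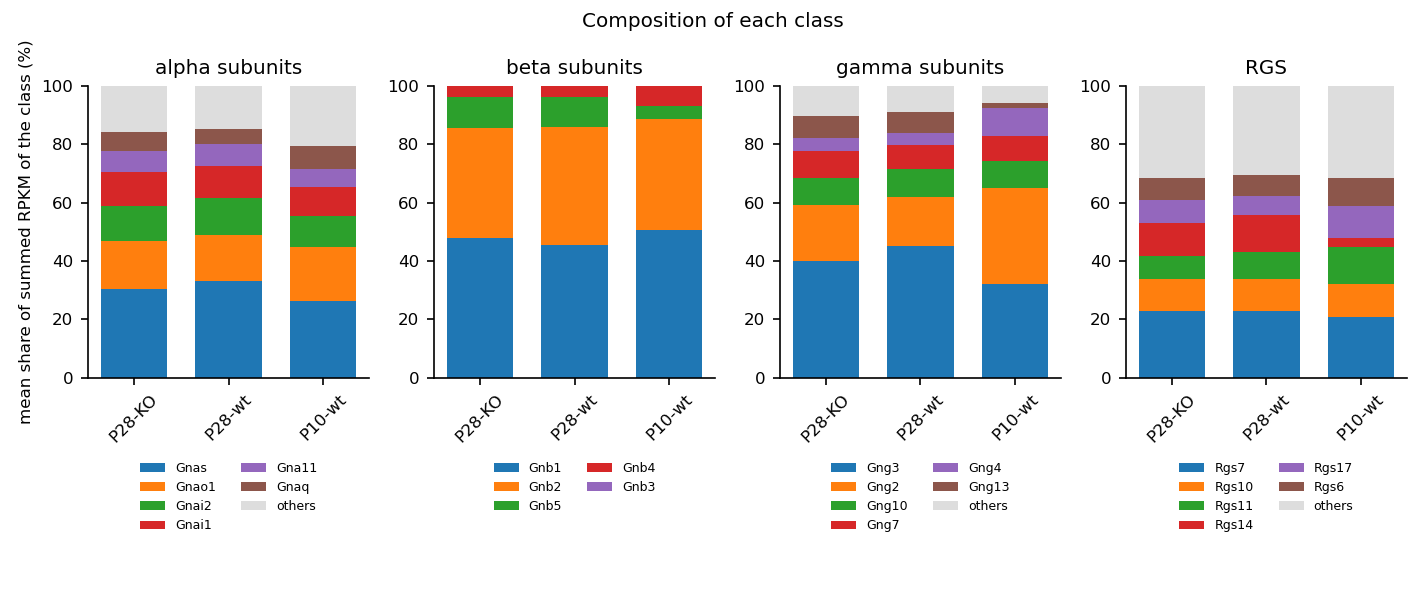
Mean share of each gene in the summed RPKM of its class (percent, stacked bars) in P28-KO, P28-wt and P10-wt, with the 6 leading genes of a class (all 5 beta subunits) in color and the others in grey. Gng2 takes 16.8% of the gamma members in P28-wt and 32.9% in P10-wt, and Rgs14 takes 12.6% of the RGS members in P28-wt and 3.09% in P10-wt.

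RGS genes divided, with 4 of 13 higher, 3 lower and 6 not called at P28. The share called, 53.8%, was near the 57.9% of all genes tested. The summed RPKM of the RGS members was 151 ± 2.97 in P28-wt and 131 ± 7.27 in P10-wt (SD, n = 4 each). Rgs14 (chr13:55369732-55384687), of the R12 family, binds Gi alpha subunits and Ras proteins and is known as a brake on synaptic plasticity in area CA2 of the hippocampus. It had 17.8, 16.6, 21.5 and 20.2 RPKM in P28-wt libraries, against 3.20, 3.29, 4.67 and 5.11 RPKM in P10-wt libraries. The lowest P28-wt library was far above the highest P10-wt library, and the log2 fold change was 2.22 (SE 0.16, adjusted p = 2.3e-06), the highest among the members. Markers of the hippocampus had a sum of 44.2 to 61.4 RPKM in P28-wt and 39.5 to 71.4 RPKM in P10-wt libraries, with 0 of 4 tested called higher and 2 lower, and their part in the result was not tested. Rgs10 and Rgs12, the other R12 members, were not called, at log2 fold changes of 0.15 and 0.12. Rgs10, which is abundant in microglia, had 16.4, 20.7, 15.4 and 14.6 RPKM in P28-wt libraries, against 13.04, 15.4, 14.6 and 17.1 RPKM in P10-wt libraries. These ranges overlapped. The 7 microglial markers were all called higher at P28, with a sum of 117 to 124 RPKM in P28-wt and 41.3 to 69.8 RPKM in P10-wt libraries.

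Of the R4 family, the small RGS proteins that act on Gi/o and Gq, Rgs8 was called higher. Rgs8, known from Purkinje cells of the cerebellum, had 14.8, 10.3, 14.3 and 15.6 RPKM in P28-wt libraries, against 5.26, 6.06, 6.08 and 6.11 RPKM in P10-wt libraries. Its groups did not overlap, with 158R the lowest of P28-wt, and the log2 fold change was 1.20 (SE 0.13, adjusted p = 2.9e-05). Rgs3 was not called, at a log2 fold change of 0.051, nor was Rgs16, at 0.31 (SE 0.13, adjusted p = 0.056), which was called higher, at 0.41 (adjusted p = 0.011), without 158R. Rgs8 and Rgs16 lie 42687 bases apart on chromosome 1.

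Proteins of the R7 family (Rgs6, Rgs7, Rgs9 and Rgs11) are obligate partners of Gnb5, and their transcripts did not all follow it. Rgs7, the most abundant of the 13 RGS members, had 33.2, 34.3, 36.6 and 33.8 RPKM in P28-wt libraries, against 24.9, 30.2, 26.6 and 27.0 RPKM in P10-wt libraries. The groups did not overlap, and the log2 fold change was 0.35 (SE 0.077, adjusted p = 0.0032), in the direction of Gnb5. Rgs9, which ends dopamine and opioid signals in striatum and the light response of photoreceptors, had 2.604, 1.48, 2.02 and 2.39 RPKM in P28-wt libraries, against 5.84, 3.59, 3.98 and 4.03 RPKM in P10-wt libraries. All P28-wt libraries were lower, with 103R the highest of P10-wt, and the log2 fold change was -1.01 (SE 0.19, adjusted p = 0.0013). Rgs6 and Rgs11 were not called, at -0.23 (SE 0.15, adjusted p = 0.20) and -0.28 (SE 0.15, adjusted p = 0.13), and Rgs11 was called lower, at -0.39 (adjusted p = 0.032), without 158R. Among genes for membrane anchors of this family, Gpr158, an orphan receptor that binds Rgs7, rose to 19.7 ± 2.93 RPKM in P28-wt, against 7.32 ± 2.596 RPKM in P10-wt (SD, n = 4 each). Rgs7bp was not called, at 25.8 ± 5.16 RPKM in P28-wt and 20.4 ± 5.02 RPKM in P10-wt (SD, n = 4 each).

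The RZ family, small palmitoylated proteins that act on Gz and Gi, was called in both directions. Rgs20 had 10.0, 9.33, 9.48 and 9.60 RPKM in P28-wt libraries, against 6.80, 6.39, 6.03 and 7.32 RPKM in P10-wt libraries. Its P28-wt values were close together and all higher, with a log2 fold change of 0.53 (SE 0.083, adjusted p = 0.00034). Rgs19 had 7.56, 8.20, 7.48 and 7.91 RPKM in P28-wt libraries, against 12.9, 12.996, 12.3 and 13.6 RPKM in P10-wt libraries. Its groups were apart in the opposite direction, and the log2 fold change was -0.73 (SE 0.072, adjusted p = 1.9e-05). Rgs17 had 9.85, 10.6, 8.39 and 11.03 RPKM in P28-wt libraries, against 12.1, 14.7, 14.1 and 15.8 RPKM in P10-wt libraries. It was also lower without overlap, at -0.50 (SE 0.11, adjusted p = 0.0027), but the difference was -0.076 (adjusted p = 0.49) after correction for GC content and length.

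Gnal, Gng7 and Rgs9, described above, are among the members lower at P28 and are known from the striatum. They were put side by side after their values were seen, and 46.2% of the members and 31.2% of all genes were called lower. Markers of striatum had a sum of 109 to 121 RPKM in P28-wt libraries and 47.8 to 76.6 RPKM in P10-wt libraries, with 3 of 9 tested higher and 4 lower and with Isl1 at 0 in every library. Ppp1r1b had 54.5 ± 5.54 RPKM in P28-wt and 5.27 ± 0.911 RPKM in P10-wt (SD, n = 4 each). Penk and Tac1 were also higher, at log2 fold changes of 1.58 and 0.54. Those lower were Drd1 at -0.42, Drd2 at -1.53, Adora2a at -0.49 and Gpr6 at -2.06. The part of these cells in the 3 results was not tested.

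Effectors and other proteins of the pathway, 48 genes of which 42 were tested, showed 14 higher, 9 lower and 19 not called at P28. Over all genes tested, 26.7% were called higher and 31.2% lower (57.9% in either direction). Among adenylyl cyclases, 3 of 9 were higher and 2 lower, with Adcy9 at 11.8 ± 1.39 RPKM in P28-wt and 5.10 ± 0.396 RPKM in P10-wt (SD, n = 4 each). Adcy7 had 1.31 ± 0.0663 RPKM in P28-wt and 3.33 ± 0.293 RPKM in P10-wt (SD, n = 4 each). Kcnj9 and Kcnj3, subunits of the GIRK potassium channels that beta-gamma dimers open, rose by 1.31 and 0.54 on the log2 scale, and Kcnj6 was not called at 0.082. Of the 4 phospholipase C beta genes, Plcb4 was higher at 0.52 and 3 were not called, with Plcb2 at 0.25. Subunits of protein kinase A, the target of cyclic AMP, included Prkar1b, which rose by 0.68, and Prkar2b, which fell by 1.66 on the log2 scale. Adrbk1, the receptor kinase Grk2 that is drawn to the membrane by beta-gamma dimers, rose by 0.64 and Grk5 fell by 0.75. Gpsm1, a GoLoco protein that holds Gi alpha subunits in the GDP state, fell by 1.27 on the log2 scale, and Pdcl, a chaperone of beta-gamma assembly, fell by 0.41. Pik3r5 and Pik3r6, regulatory subunits of the PI3 kinase that beta-gamma dimers activate, rose by 0.76 and 0.51. Both were of low level, and the call of Pik3r5 was marginal (adjusted p = 0.0456, limma). Pik3cg, of the same list, lay below the limit for testing, with means of 0.338 RPKM in P28-wt and 0.546 RPKM in P10-wt. Both arrestin genes, Arrb1 at -0.26 and Arrb2 at -0.14, missed the threshold.

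The comparison of P28-KO with P28-wt asked whether members differed in cortex without miR-132 and miR-212. A microRNA pairs through its seed, bases 2 to 8, with sites in the 3′ UTR of its targets. The mature sequences from RefSeq (GRCm38.p6, chromosome 11, plus strand) are shown with the seed in capitals, because they define the sites searched.
miR-132-3p: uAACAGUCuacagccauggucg
miR-212-3p: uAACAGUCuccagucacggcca
miR-212-5p: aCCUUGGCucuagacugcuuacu
The 3p arms share 1 seed, whose complement is GACTGTT, and the site for miR-212-5p is GCCAAGG. On the transcribed strand of the longest annotated 3′ UTR, GACTGTT occurred in 4 of the 39 members tested (10.3%) and in 1610 of 13116 tested genes with an annotated 3′ UTR (12.3%). The median length of these 3′ UTRs was 1613 bases in members and 1104 bases in all. The 4 sites are shown with 10 bases on either side and the match in capitals, as they are the matches to the 3p seed in these annotated 3′ UTRs.
Gnb4: gacagtaacaGACTGTTatgtcttgct
Gnb1: tgtcacagatGACTGTTtcgcacaaac
Rgs9: ttctgaggaaGACTGTTgggccctggt
Rgs20: gtgattcttgGACTGTTgtaataacag
They lie at chr3:32583641-32583667 (minus strand), chr4:155558118-155558144 (plus), chr11:109233366-109233392 (minus) and chr1:4910351-4910377 (minus), in the order shown. The site of Gnb4 is the one followed by an A. GCCAAGG was found in the annotated 3′ UTR of Gnas, Gnaz, Gng7, Rgs3, Rgs7, Rgs8, Rgs12 and Rgs16, 8 of the 39 members (20.5%) where all tested genes gave 12.2%. That of Gnas lies in coding sequence of other transcripts, and that of Gnaz lies past the end of the gene as listed with its RPKM. A match is a description and not a shown contact. The longest annotated 3′ UTR may belong to a transcript that is not the one expressed in cortex, which a single RPKM per gene cannot tell. RefSeq lists 2 transcripts of Rgs9, 3 each of Gnb1 and Rgs20 and 4 of Gnb4.

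In the mutant, limma called 0 of the 39 members at the same threshold. Over all 13927 genes 2 were called, Mir132 and Mir212 themselves, both lower (0.0144% of the genes, and 0.0% higher). At an unadjusted p under 0.05 there were 4 members (3 higher and 1 lower), 10.3% of those tested, where all genes gave 12.4% (4.27% higher and 8.11% lower). Cyber-T, a regularized test on RPKM of the kind that the study used, called Gna13, Gnaq and Rgs16 higher and Gng3 lower at a posterior probability above 0.6, and 11.6% of all genes (4.67% higher and 6.94% lower). These 4 members were also those with an unadjusted p under 0.05. The libraries of the 2 groups did not overlap in 1 member, 2.56% of them, where all genes gave 5.49% (1.87% higher and 3.62% lower). The median log2 fold change was -0.024 over the members and -0.029 over all genes. Both comparisons share the P28-wt libraries, so values in one are not independent of the other.

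The 6 members with the smallest p-values came from all classes but the beta subunits. Gna13 had 9.34, 8.66, 9.20 and 8.47 RPKM in P28-KO libraries, against 7.68, 6.63, 7.17 and 8.69 RPKM in P28-wt libraries. The mutant was higher on average, with overlap, at a log2 fold change of 0.24 (95% interval 0.034 to 0.45, unadjusted p = 0.0271, adjusted p = 0.39) from limma. Gnaq had 34.9, 29.3, 35.5 and 37.6 RPKM in P28-KO libraries, against 30.1, 25.6, 27.6 and 32.1 RPKM in P28-wt libraries. The groups overlapped, with 158R the lowest library, at a log2 fold change of 0.25 (95% interval 0.03 to 0.47, unadjusted p = 0.0295, adjusted p = 0.39). Gng3 had 108, 114, 104 and 100.8 RPKM in P28-KO libraries, against 128, 168, 141 and 103 RPKM in P28-wt libraries. The P28-wt libraries other than 144R were above every mutant library, 158R the most, and the log2 fold change was -0.32 (95% interval -0.60 to -0.034, unadjusted p = 0.0316, adjusted p = 0.39), or -0.21 without 158R. Rgs16 had 3.76, 4.64, 3.67 and 3.31 RPKM in P28-KO libraries, against 3.14, 2.47, 3.64 and 2.97 RPKM in P28-wt libraries. Its groups overlapped at a log2 fold change of 0.32 (95% interval 0.013 to 0.63, unadjusted p = 0.0425, adjusted p = 0.40). Gng12 had 15.5, 14.9, 15.6 and 17.2 RPKM in P28-KO libraries, against 13.8, 14.7, 13.8 and 14.2 RPKM in P28-wt libraries. It was the member without overlap, all mutant libraries being slightly higher, at a log2 fold change of 0.16 (95% interval -0.0005 to 0.32, unadjusted p = 0.0506, adjusted p = 0.40). Rgs17 had 11.2, 10.3, 12.5 and 12.1 RPKM in P28-KO libraries, against 9.85, 10.6, 8.39 and 11.03 RPKM in P28-wt libraries. The ranges overlapped, and the log2 fold change was 0.21 (95% interval -0.015 to 0.44, unadjusted p = 0.0637, adjusted p = 0.42). After correction for GC content and length the values were 0.12 for Gna13, 0.11 for Gnaq, 0.057 for Gng12 and -0.016 for Rgs17. The corrected values of Gng3 and Rgs16 are not given here, and neither gene was called after this correction.

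**Figure D5:**
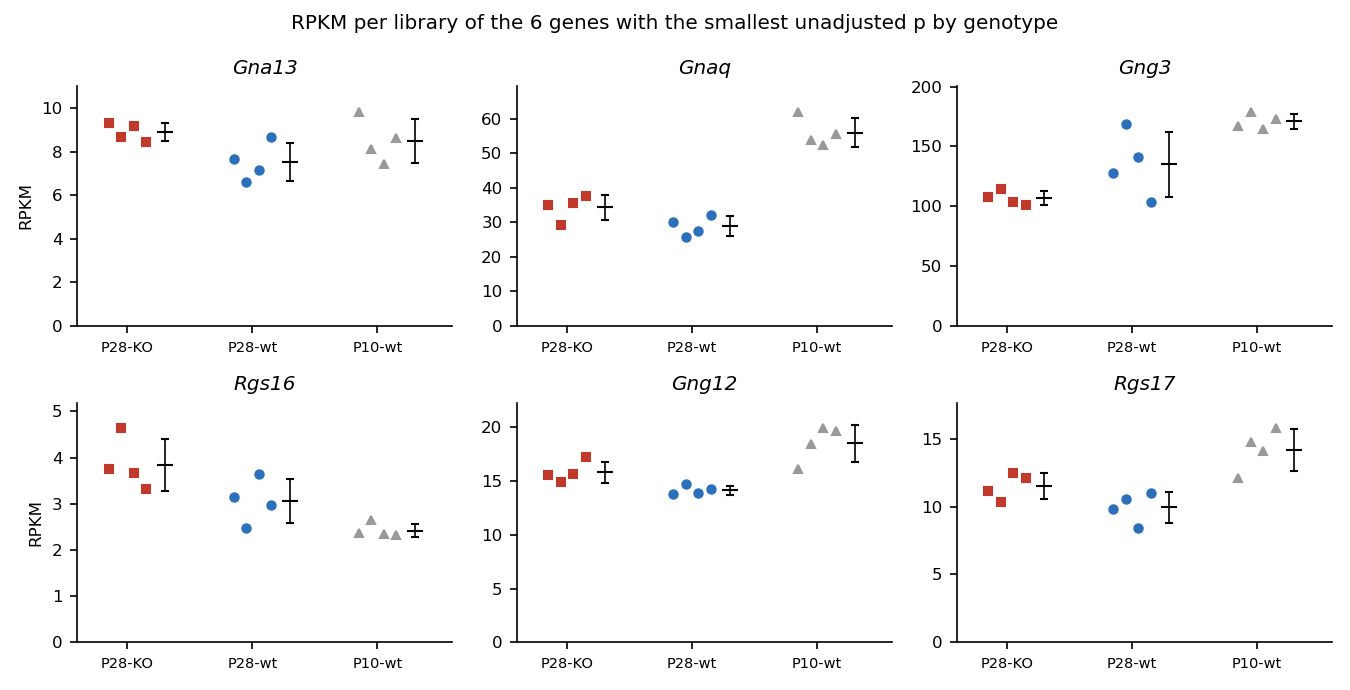
RPKM per library (points) of the 6 genes with the smallest unadjusted p by genotype, with mean and SD of 4 libraries beside the points, in the order P28-KO, P28-wt and P10-wt, on axes that start at 0. P28-KO and P28-wt overlap in 5 of them, Gng12 being the exception.

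Members whose longest annotated 3′ UTR holds the site of miR-132-3p were not higher in the mutant beyond the spread. Gnb4 had 13.4, 14.4, 14.3 and 18.04 RPKM in P28-KO libraries, against 14.8, 16.7, 15.5 and 14.9 RPKM in P28-wt libraries. These values overlapped, and the log2 fold change was -0.049 (95% interval -0.27 to 0.17). Gnb1 gave -0.024 (95% interval -0.18 to 0.13), Rgs9 0.19 (95% interval -0.18 to 0.56) and Rgs20 -0.033 (95% interval -0.22 to 0.15). The intervals of Gnb4, Gnb1 and Rgs20 thus end at or below an increase of 0.17 on the log2 scale, whereas that of Rgs9, a gene of low level, reaches 0.56.

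The members that changed most with age can be set beside their values in the mutant. Rgs14 had 16.6, 19.3, 15.5 and 15.3 RPKM in P28-KO libraries, against 17.8, 16.6, 21.5 and 20.2 RPKM in P28-wt libraries. The groups overlapped, at -0.19 (95% interval -0.42 to 0.044). Gng4 had 11.8 ± 1.54 RPKM in P28-KO and 11.7 ± 1.13 RPKM in P28-wt (SD, n = 4 each), a log2 fold change of 0.0058 (95% interval -0.23 to 0.24). For Gng2 it was 0.065 (95% interval -0.12 to 0.25), for Gnai3 0.18 (95% interval -0.05 to 0.41), for Gnal 0.003 (95% interval -0.25 to 0.25) and for Rgs8 0.10 (95% interval -0.18 to 0.39). Among the abundant members, Gnas gave -0.17 (95% interval -0.36 to 0.025), Gnao1 -0.0007 (95% interval -0.16 to 0.16) and Gnb2 -0.20 (95% interval -0.46 to 0.048). The widest intervals belonged to Gng13, at -0.045 (95% interval -0.67 to 0.58), and Gng8, at -0.024 (95% interval -0.60 to 0.55), so changes within these intervals were not excluded with 4 libraries a group. The intervals are not adjusted for the 13927 genes tested, so they are not the smallest changes that could have been called. Of the 42 pathway genes tested, 0 were called in the mutant. The lowest unadjusted p was that of Prkar1b (0.00815, adjusted p = 0.38, limma), at 248 ± 4.77 RPKM in P28-KO and 288 ± 8.47 RPKM in P28-wt (SD, n = 4 each). Adcy1, an adenylyl cyclase of neurons, followed at 68.9 ± 5.01 RPKM in P28-KO and 55.7 ± 10.6 RPKM in P28-wt (SD, n = 4 each; unadjusted p = 0.0314, adjusted p = 0.39, limma). Rgs7bp was next, with 32.9 ± 4.48 RPKM in P28-KO and 25.8 ± 5.16 RPKM in P28-wt (SD, n = 4 each; unadjusted p = 0.0332, limma). Oligodendrocyte markers had a sum of 1286 to 1652 RPKM in P28-KO and 1718 to 2476 RPKM in P28-wt libraries, without overlap, though 0 of 8 were called. The summed excitatory neuron markers given above did not overlap between P28-KO and P28-wt either, with 0 of 7 called. The part of both in these values was not tested.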

How the data were processed

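Per the labels and the methods, the authors made TruSeq v2 libraries from QIAzol-extracted RNA, aligned paired-end reads with ELAND to build mm10 and RefSeq exons, kept uniquely aligned reads and deposited RPKM per gene and library. The labels also name CASAVA 1.8.2, SAMtools 0.1.19 and Bowtie 0.12.8. Reads shared by near-identical genes were thus dropped, and whether counting used strand is not given in the sources used here. Expression values of the 12 small RNA samples were not among the data used here, so these samples were not analysed.

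Depth was estimated from the step between low RPKM values of genes with 1 curated transcript: 50.3% to 60.5% of values lay within 0.1 of a whole number of reads, where 20.0% would by chance. Since this is not nearly all genes, no count test was run. Each comparison was fitted with limma 3.58.1 (R 4.3.3, with a trend on mean expression) from its own 8 libraries, on log2(RPKM + 0.1), for genes with a mean of at least 0.5 RPKM over 12 libraries. Fold changes are on that scale, which understates those of low genes. The fits were tested on simulated data. No batch is given by the labels.

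Members and lists were chosen with earlier results of these data known. Values per library are given, by age, for up to 4 members per class and direction with the largest change among those called and for the 2 most abundant members per class, and, by genotype, for the 6 members with the smallest p. Of the pathway lists, up to 2 genes with the smallest p are named, and 1 of these lists and 1 of the 15 marker lists are not reported here. Members with seed sites, those most changed by age in the mutant, Kcnj6, Adcy1, Pik3cg, Neat1, Malat1, the named striatum markers and the marginal members were added after their values were seen. The alternatives tried were a pseudocount of 0.01 or 1, a mean of at least 2 RPKM or no filter, quantile normalization or median-ratio scaling, a joint fit of the 12 libraries, Cyber-T (regularized over 101 genes of like level, with a weight of 10), Ddx3y, a Y-linked gene, as a covariate, correction for GC content and transcript length by loess (span 0.3), a replicate block and leaving out each library. Sequences and 3′ UTRs are from RefSeq GRCm38.p6. Of the table's genes, 22590 were matched by symbol and 1143 by an older symbol. Python 3.11.15 and matplotlib drew the figures.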

Additional observations from a re-analysis of the deposited data

Results flagged for a closer look

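In each of the 3 groups, each of the 41 genes was checked for a library far from the other 3, by Dixon's ratio of the gap to the range at its 95% critical value. Chance flags about 1 in 20 groups, or 6.2 of the 123 groups tested, and 8 stood out. Library 103R stood out in 3 of them. Gnai3 had 33.8 RPKM in 103R, against 23.6 to 24.0 RPKM in the other P10-wt libraries. Gng2 had 232 RPKM in 103R, against 154 to 162 RPKM. Rgs8 had 5.26 RPKM in 103R, against 6.06 to 6.11 RPKM. Library 158R stood out in P28-wt for Gng10, with 39.7 RPKM against 24.4 to 27.0 RPKM, and for Gnaz, with 15.4 RPKM against 23.2 to 24.5 RPKM. In P28-KO, library 088R had 74.2 RPKM of Gnai2, against 59.9 to 61.3 RPKM, and library 079R had 0.572 RPKM of Gna15, against 0.922 to 0.960 RPKM. Rgs16 had 2.64 RPKM in P10-wt library 111R, against 2.32 to 2.37 RPKM. None of these 8 values was left out of the comparisons. The causes were not tested.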

How the results depend on the processing

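The count of members called by age kept within 1.5 times its value under every alternative run, with 6 to 9 higher and 16 to 21 lower, and the counts when 1 library was left out were 7 to 8 higher and 16 to 20 lower. By genotype the counts were 0 in both directions under every alternative but Cyber-T, which gave 3 higher (Gna13, Gnaq and Rgs16) and 1 lower (Gng3), and leaving out 1 library gave 0 to 0. Small differences changed sign. By age, Gnas was 0.033 with median-ratio scaling and -0.058 to 0.040 without 1 library, and Rgs10 was -0.025 without 103R and 158R, an alternative chosen after seeing the data. By genotype, Rgs17 was -0.016 after correction for GC content and length, and Gnb1 was 0.0060 with median-ratio scaling and 0.086 with quantile normalization. Without 1 library, Gnb1 ranged over -0.053 to 0.0049, Gnb4 over -0.14 to 0.0038 and Rgs20 over -0.087 to 0.0092. By age, some members gained a call: Gnas at -0.18 with quantile normalization, Gna11 at -0.23 and Gnai2 at -0.28 after correction for GC content and length, and Gna12 at 0.25 with Ddx3y as a covariate. The causes were not tested. The replicate block on the number in the column names gave 8 higher and 17 lower by age, with Gnai1 lost, and 0 by genotype. The deviations of same-numbered libraries correlated at -0.049 to 0.11 by age and at -0.091 to 0.28 by genotype. With 4 libraries a group, these values cannot decide whether the numbers pair the libraries. Median-ratio scaling and quantile normalization moved the median of all genes by less than 0.1 on the log2 scale. Depth limits the members of low level, such as Gng8 and Gna15.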
